A study of Mus musculus with 4 samples.

Results

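The 960 regions described here were stretches of open chromatin in immature γδ thymocytes that carried a peak in both Maf wild-type libraries and in neither Maf-deficient library, and that lay away from the ends of genes. Overlapping peaks, sharing at least 1 bp, were merged across the 4 lists on chromosomes 1 to 19 and X, which gave 171490 regions. A region was kept when it was at least 200 bp wide and lay more than 1 kb from both ends of every protein-coding gene, which left 56884 distal regions. Of these, 960 (1.69%) were called in both wild-type libraries and in neither knockout library and are called WT-only below. The mirror image, called in both knockout libraries alone, held 768 (1.35%), and 45308 were called in all 4 libraries. The regions were chosen by the presence of a peak in both WT lists and its absence from both KO lists, so every difference between the genotypes at them is a description and was given no test.

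The libraries were made by Omni-ATAC-seq, in which Tn5 transposase cuts and tags accessible DNA, from fetal thymus at embryonic day 17 to 18. The cells were sorted γδ T cells negative for CD4 and CD8, positive for CD3e, TCRγδ and CD24, and low for CD45RB, an immature stage. Wild-type (WT) fetuses were Maf+/+ Il7r-Cre and knockout (KO) fetuses Maf fl/fl Il7r-Cre, with 2 libraries of each. Cre was thus present in every group, and the stated genotypes differed in the floxed Maf alleles. Other genetic differences between the groups were not examined. Il7r-Cre is active in lymphoid precursors, ahead of the γδ stage, and so in other lymphocytes too. All fetuses were on a C57BL/6 background after 5 backcross generations, and cells of several fetuses were pooled. Whether replicate libraries came from different pools is not stated, and their spread may therefore be technical only.

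c-Maf, the product of Maf, is a basic leucine zipper transcription factor that binds Maf recognition elements, whose core half-site is TGCTGA. It is required for the γδ T cells that make IL-17, a fate set in the fetal thymus together with Sox factors. Accessible regions far from gene ends are often enhancers, which act on genes at a distance and open in a more cell-type-specific way than promoters.

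The only bases of these regions in the sequences used here were those that fall in RefSeq start windows (GRCm38.p6), each running from 250 bases before to 50 after a gene's start. Of the 960 WT-only distal regions, 8 overlapped 9 of the 32851 windows, mostly at starts of non-coding genes, which the distance rule did not count. Ranks run from the highest to the lowest by the lower WT percentile of peak height, defined below. The 3 highest ranked of them are shown 5′ to 3′ on the plus strand, to let the sequence be read beside its values, with any TGCTGA on either strand in capitals (TCAGCA is the same half-site on the other strand).
4933411E08Rik start, chr10:117925221-117925508: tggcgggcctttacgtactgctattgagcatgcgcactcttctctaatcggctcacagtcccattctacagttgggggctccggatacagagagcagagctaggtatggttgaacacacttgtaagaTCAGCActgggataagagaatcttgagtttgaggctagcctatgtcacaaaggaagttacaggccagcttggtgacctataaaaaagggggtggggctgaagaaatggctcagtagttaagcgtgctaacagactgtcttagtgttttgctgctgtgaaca
Gm35155 start, chr12:12827912-12828099: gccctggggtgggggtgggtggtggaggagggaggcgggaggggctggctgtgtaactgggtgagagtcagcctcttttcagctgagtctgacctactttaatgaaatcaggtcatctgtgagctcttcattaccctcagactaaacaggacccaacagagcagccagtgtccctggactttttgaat
Gm31156 start, chr4:123551845-123552098: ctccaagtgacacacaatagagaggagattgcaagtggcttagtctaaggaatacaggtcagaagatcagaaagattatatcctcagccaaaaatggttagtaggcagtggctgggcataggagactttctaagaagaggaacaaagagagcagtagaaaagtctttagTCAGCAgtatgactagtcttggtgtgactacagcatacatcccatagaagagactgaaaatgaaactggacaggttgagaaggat

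Peak height is given below as the −log10 q that the authors' peak caller assigned to the tallest peak in the region, where q is the p-value of the summit over local background after correction within that library. The region at the start of 4933411E08Rik, a non-coding gene whose region lay 79.2 kb from Rap1b, had a height of 11.4 in WT 1 and 22.2 in WT 2. It stood at rank 130 of the 960, and the closest KO peak began 98 bp away. The region at Gm35155 had 8.28 and 49.5, and that at Gm31156, inside the body of the cytoskeletal linker gene Macf1, had 5.35 and 7.44. The printed bases of 4933411E08Rik and Gm31156 each held 1 half-site and those of Gm35155 held none, although its start window held 1 outside the region. Over all 32851 windows of 300 bases, 19.5% held TGCTGA on either strand. None of the 3 windows held TGANTCA, the AP-1 site, which was present in 7.81% of windows on either strand, or CTTTGA, the TCF1 site (16.0%), and TGTGGT, the RUNX site (16.8%), was present in the window of Gm31156 outside the printed bases. A match is a description of the letters and not of binding.

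A WT-only distal region also lay near each of 2 of the 1005 RefSeq miRNA hairpins. Mir146 encodes miR-146a, which restrains inflammatory signalling in immune cells, and its seed, bases 2 to 8, is shown in capitals because the seed selects the targets.
mmu-miR-146a-5p: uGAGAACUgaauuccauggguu
mmu-miR-146a-3p: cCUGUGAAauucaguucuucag
The hairpin is at chr11:43374397-43374461 on the minus strand, and the WT-only region at chr11:43374961-43375204 began 500 bp from it, on its 5′ side. That region had a height of 13.5 in WT 1 and 55.6 in WT 2 and stood at rank 85. The closest KO peak was 878 bp from it, so open chromatin was called in the same neighbourhood in KO. The second hairpin, Mir5110 inside Bcas3, lay 13 bp from a region with heights of 2.15 and 4.41, at rank 846.

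The 4 lists differed in size and in background, and these values bear on every absence described here. The lists held 102718 (WT 1), 132179 (WT 2), 130935 (KO 1) and 120141 (KO 2) peaks. They called 48789, 55066, 52599 and 53350 of the distal regions. All lists ended at a height of 1.00. A summit's pileup, the number of overlapping reads or fragments, and its local background were solved from the deposited fold and −log10 p. The commonest local background was 1.57 and 1.38 in WT and 0.877 and 0.758 in KO, so the genotypes did not overlap and KO was lower. At that background the smallest summit called was 4.46 and 4.35 times the background in WT 1 and WT 2, and 5.70 and 6.60 times in KO 1 and KO 2. Genes that mark T cells (Cd3e, Cd3d, Cd3g, Cd247, Ptprc, Lck, Zap70, Lat and Trdc) each had a peak at or inside 1 kb from a gene end in every library (9 of 9). Of 4 B cell markers, 2 had such a peak in every library, and of 4 myeloid markers 1. The numbers in WT 1, WT 2, KO 1 and KO 2 were 1, 2, 3 and 1 of 4 erythroid markers, 2, 3, 3 and 3 of 4 of thymic epithelium, and 2, 2, 1 and 2 of 4 of endothelium and mesenchyme.

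At a WT-only distal region the median summit was 13 reads or fragments deep in WT 1 and 22 in WT 2, which was 6.97 and 10.9 times the local background. In 476 of the 960 (49.6%) both WT summits were at least 6.60 times their background, the larger of the KO minimum ratios. The reverse comparison gave 731 of 768 KO-only distal regions (95.2%) above the larger WT minimum of 4.46. That share was largely fixed in advance. At the commonest KO background the smallest summits called were 5.70 and 6.60 times it, already above 4.46. The 95.2% is therefore no counterpart to the 49.6%. In 164 WT-only regions (17.1%) both WT summits reached 1.5 times the KO minimum, in 56 (5.83%) they reached 2 times it, and in 12 (1.25%) 3 times it.

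Because regions with a higher local background can be called at a lower ratio, each summit was also placed on the KO scale, with its ratio kept and its background lowered as the commonest backgrounds differ. On that scale 825 of the 960 (85.9%) would still have passed the smallest −log10 p listed in both KO libraries, and 135 (14.1%) would not. All 768 KO-only regions passed on the WT scale. There the background is raised at a kept ratio, which raises −log10 p, so this was close to fixed in advance. The scaled values are expected pileups and leave out counting error, which is wide at 5 or 6 reads or fragments. The scaled summits are also those whose calls chose the regions, so passing was favoured by the rule. For the 135, a missing KO call could not be told apart from an equally open region below the caller's limit. The commonest background was lower in both KO than in both WT libraries. In the other absences, too, depth could therefore not be told apart from genotype, and its part was not tested.

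Heights spread widely among the members. In WT 1 they ran from 1.09 to 58.1 with a median of 5.40, and in WT 2 from 1.24 to 142 with a median of 13.1. The WT 2 height was the larger in 855 of the 960. KO-only distal regions had medians of 4.18 in KO 1 and 5.51 in KO 2, the latter close to that of WT-only regions in WT 1. Because heights depend on depth, each was also turned into a percentile within its own list, and the lower of the WT 1 and WT 2 percentiles ranked the members. The median of that lower percentile was 28.1 in WT-only regions, 16.7 in KO-only regions (lower of KO 1 and KO 2) and 63.4 in regions called in all 4 libraries (lower of WT 1 and WT 2). Taken library by library, the median percentile of the members was 32.2 in WT 1 and 52.4 in WT 2, so they lay low in the WT 1 list and around the middle of the WT 2 list. Across the 960, the heights of WT 1 and WT 2 had a Spearman correlation of 0.671, against 0.913 across the 45308 regions called in all 4. These are descriptions across regions, which share libraries and local background, and the range of the members was narrowed by the rule.

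**Figure D1:**
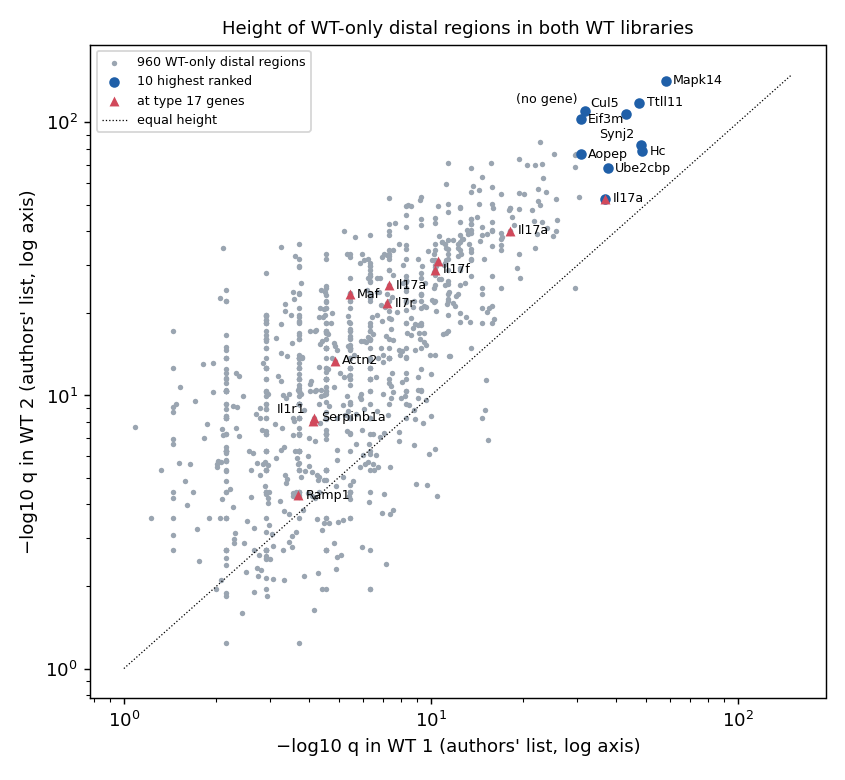
Each point is 1 of the 960 WT-only distal regions, placed by its −log10 q in WT 1 (x axis) and WT 2 (y axis), both on log axes, with the 10 highest ranked in blue, those at type 17 genes as red triangles, not all of them named, and a dotted line of equal height. Most points (855) lie above the line, and the 10 highest ranked lie from 30.7 to 58.1 in WT 1 and from 52.5 to 142 in WT 2.

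The rule required a peak of both WT libraries in each member, so their closeness within it is a description. Both had a single peak in 943 of the 960, and the 2 summits were a median of 31.5 bp apart, within 50 bp in 674 (70.2%) and 345 bp apart at most. The median width was 247 bp (200 to 756), against 234 bp in KO-only and 302 bp in regions called in all 4. The peak of WT 2 covered a median of 236 bp of the region, and that of WT 1 less. Near the width limit, the 5 regions just inside were all 200 bp wide with heights of 3.41 to 8.81 in WT 1 and 5.70 to 18.8 in WT 2. The 5 just outside, at 199 bp, had 2.15 to 10.3 and 2.72 to 14.2. Near the distance limit, the 5 just inside lay 1007 to 1056 bp from a gene end, with heights of 3.38 to 15.7 and 4.77 to 71.2. The 5 just outside lay 912 to 975 bp away, with 3.46 to 13.5 and 4.91 to 43.5, so nothing in height separated the sides of either limit.

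Height and one-sided calling went together in both genotypes. Among distal regions called in both WT libraries, 410 of 6754 (6.07%) had no KO call where the lower percentile was under 25. The share was 344 of 10856 (3.17%) from 25 to 50, 187 of 15396 (1.21%) from 50 to 75 and 19 of 15223 (0.125%) above 75. Among those called in both KO libraries, the shares with no WT call were 8.78%, 1.79%, 0.0845% and 0.0116% in the same order. In the lowest class the KO share was the larger, and in the other 3 the WT share was. Asking for a height of at least 10 in both own libraries left 183 WT-only (19.1%) and 17 KO-only regions (2.21%), and a height of at least 20 left 36 and 2. Heights depend on depth, and the commonest background was lower in KO (0.877 and 0.758) than in WT (1.57 and 1.38). At an equal ratio to local background, a lower background gives a smaller height. KO heights were not lower everywhere, however. At distal regions called in all 4 libraries the median heights were 15.4 (WT 1), 31.6 (WT 2), 21.3 (KO 1) and 27.1 (KO 2). The part of depth in the counts at a fixed height was not tested. As ratios to local background, median summits were 8.40 (KO 1) and 10.3 (KO 2) in KO-only regions. In WT-only regions they were 6.97 (WT 1) and 10.9 (WT 2).

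**Figure D2:**
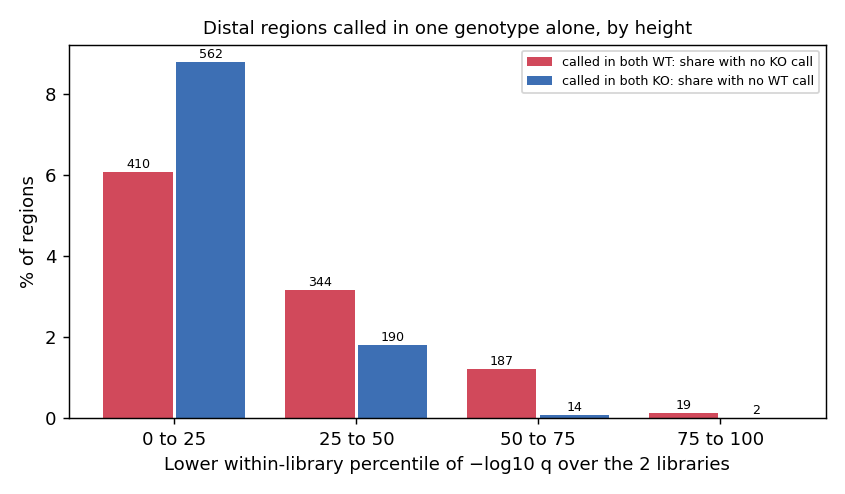
Bars give the share of distal regions called in both libraries of one genotype that had no call in the other (y axis, %), by class of the lower within-library percentile (x axis), red for WT and blue for KO, with the number of regions above each bar. The blue bar is the taller in the lowest class (8.78% against 6.07%) and the red bar in the other 3.

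The strict rule left out regions with a call in 1 KO library. Of 48229 distal regions called in both WT libraries, 960 had no KO call, 779 had a call in KO 1 alone, 1182 in KO 2 alone and 45308 in both. The median lower percentile was 28.1 with no KO call and 22.6 with 1, so the members were not lower than the partly called regions. Called in exactly 2 libraries were 3612 distal regions, of which 960 were WT-only, 768 KO-only and 1884 had 1 library of each genotype. The mixed pairs were uneven, with 1019 for WT 2 and KO 2, 687 for WT 2 and KO 1, 104 for WT 1 and KO 2 and 74 for WT 1 and KO 1. The pair of WT 2 and KO 2 thus held more regions than the 2 WT libraries did. A further 4384 distal regions were called in every library but WT 1.

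KO peaks were often near. The nearest one lay a median of 2540 bp from a member. For 57 of the 960 (5.94%) it was within 200 bp, for 273 (28.4%) within 1 kb and for 157 (16.4%) more than 10 kb away. KO-only regions had a WT peak within 200 bp in 8.20% and within 1 kb in 31.8%. The most isolated member, at chr6:109505255-109505460, was 354 kb from any KO peak and had heights of 6.35 and 7.24.

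The 25 highest ranked members had heights of 22.7 to 58.1 in WT 1 and 38.3 to 142 in WT 2, and in each of them both WT summits exceeded 6.60 times background. Their nearest KO peaks lay 0.319 to 19.2 kb away. The highest was a 266 bp region inside Mapk14, the gene of the stress kinase p38α, at chr17:28716196-28716461 (GRCm38, as are all positions here). Its height was 58.1 in WT 1 and 142 in WT 2, with summits of 57 and 116 reads or fragments, 28.1 and 45.0 times the background, and the nearest KO peak was 6.09 kb away. Positions inside a gene are within its body, since the gene table used here gives no exons.

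The next ranks were also regions inside genes. Hc, which encodes complement C5, held one at chr2:34989005-34989302 with heights of 48.7 and 78.6. Synj2, a phosphoinositide phosphatase gene, held one at chr17:5983937-5984205 with 48.4 and 82.8. Ttll11, which encodes a tubulin-modifying enzyme, held one at chr2:35943046-35943290 with 47.7 and 118. Cul5, the scaffold of the ubiquitin ligases that use SOCS proteins, held a 505 bp region at chr9:53629453-53629957 with 43.3 and 107. In each of these the summits were 23.9 to 29.3 times the background in WT 1 and 26.3 to 42.0 times in WT 2, well above the smallest called in KO. The nearest KO peaks lay 1.15, 1.95, 5.04 and 4.95 kb away, in that order.

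Ranks 6 to 10 mixed gene bodies and intergenic positions. Ube2cbp held the sixth at chr9:86321970-86322269 (37.6 and 68.1), and the seventh lay 44.7 kb from Il17a, described below. The eighth, at chr2:75132244-75132551, had no protein-coding gene within 100 kb, its closest gene end being 255 kb away, and heights of 31.8 and 110. Another member stood beside it, at chr2:75129695-75129954, with 16.9 and 35.6. Eif3m, a translation initiation subunit gene, held the ninth (30.8 and 103), and Aopep, an aminopeptidase gene, the one at rank 10 (30.7 and 76.4), with KO peaks 12.7 kb and 349 bp away.

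From rank 11 to 25, regions lay inside Dhx37, Lrrc17, Plcl1, Disp1, Umad1, Slc22a15, Pabpc4, Sik1, Arhgap25 and Ppm1l, and outside but nearest to Mylk4, Pxdc1, Gm34768 and Zfp36l1, among others. The region in Lrrc17 also lay inside Fbxl13. Sik1 encodes a salt-inducible kinase, and its region at chr17:31850368-31850813 had 23.7 and 55.7. Arhgap25 encodes a GTPase-activating protein of blood cells, and its region had 23.1 and 62.7 over a high local background, so that its summits were only 8.17 and 9.85 times it. Zfp36l1, which promotes decay of cytokine and cell cycle mRNAs, was 89.9 kb from its region (23.0 and 43.3). The local background thus separated regions of like height, as between Arhgap25 and Gm34768 (23.0 and 70.2), whose summits were 17.8 and 34.7 times it.

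The type 17 list, 31 genes of the γδ cells that make IL-17, held 11 members at 9 genes. That was 11 of the 273 distal regions assigned to the list (4.03%), against 1.69% over all distal regions. The list held 7 KO-only regions (2.56%, against 1.35%) at 4 genes, Rora, Sox5, Zbtb16 and Maf. A region was assigned to the gene body it overlapped, the shortest where several did, or to the nearest one within 100 kb. The list was drawn up with earlier results of these data known. The 11 had a median lower percentile of 42.1, and 6 of them exceeded 6.60 times background in both WT libraries.

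The genes of the IL-17 cytokines, Il17a and Il17f, are neighbours on chromosome 1 and had 3 and 1 of the 11. The region 44.7 kb from Il17a had 37.0 in WT 1 and 52.5 in WT 2, that 15.3 kb away had 18.1 and 40.1, and that 4.75 kb away had 7.30 and 25.3. The region nearest Il17f, 17.1 kb away, had 10.3 and 28.8. A further member on the lower-coordinate side of Il17a, at chr1:20670836-20671113 and assigned to Pkhd1, had 3.71 and 7.24. Height on that side therefore followed no order of distance. Between the genes, 2 of the regions called in all 4 libraries had heights of 86.3, 102, 48.7 and 43.2 (WT 1, WT 2, KO 1, KO 2) at chr1:20740397-20740906 and 72.3, 169, 133 and 122 at chr1:20743862-20744282. Open chromatin was therefore called between the genes in KO. On the other side of Il17a, where the rule fixed the absence of KO calls at the members, KO 2 had a peak at chr1:20700131-20700302 (5.77, with 13.7 in WT 2). The region at chr1:20740397-20740906 was lower in both KO than in both WT libraries. So were another 2 regions called in all 4 libraries, at chr1:20754483-20754762 (23.0, 41.2, 15.9 and 5.77) and chr1:20784232-20784612 (22.4, 51.9, 5.14 and 10.5). The same held for their within-library percentiles. The fifth region called in all 4, at chr1:20738608-20738732, was highest in KO 1 (5.01, 8.67, 13.4 and 6.43).

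**Figure D3:**
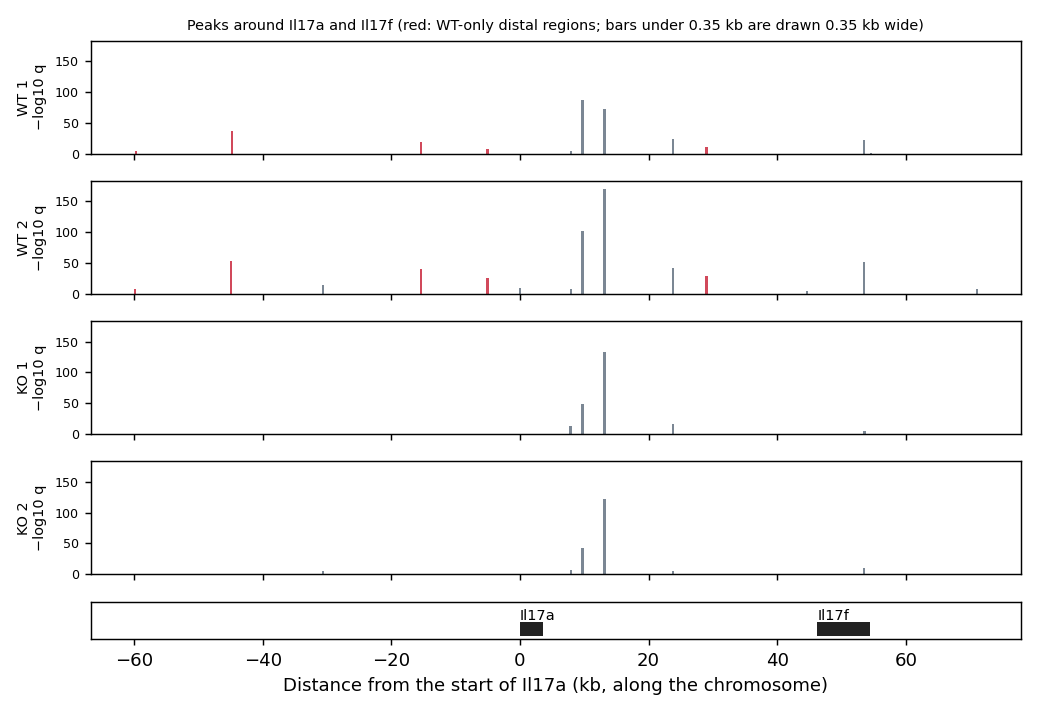
Peaks of each library around Il17a and Il17f, placed by distance from the start of Il17a (x axis, kb) and drawn to their −log10 q (y axis), with WT-only distal regions in red, all other peaks in grey and the genes in black. Red bars appear in both WT panels at the same places, the tallest near 45 kb below Il17a (37.0 and 52.5), while the 2 tallest grey bars between the genes appear in all 4 panels.

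Of the regulators in the type 17 list, Maf itself had a member 27.1 kb outside the gene, at chr8:115733998-115734200, with 5.44 and 23.5. The floxed interval is not given in the sources used here. Maf also had 1 KO-only region among its 9 distal regions.

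Receptor and effector genes of the list had lower members. Il7r, the IL-7 receptor gene whose expression Cre follows in every group, held one with 7.20 and 21.8 and a KO peak 173 bp away. Il1r1, the IL-1 receptor gene, held one with 4.12 and 8.10 and a KO peak 190 bp away. Actn2, an actinin gene, had 4.85 and 13.4, Serpinb1a, a protease inhibitor gene, 4.16 and 8.28, and Ramp1, a receptor-modifying protein gene, 3.70 and 4.32. In Actn2, Serpinb1a, Il1r1 and Ramp1 at least 1 WT summit was below 6.60 times background. For Il7r and Il1r1 the close KO peaks mean that accessibility beside the region was called in KO. Il23r, the IL-23 receptor gene, Blk and Sox13 had 0 members among 5, 10 and 13 distal regions.

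Other lists were described by the same counts. The list of published c-Maf targets, which shares Il17a and other genes with the type 17 list, held 8 members among 166 regions (4.82%) and 3 KO-only regions (1.81%). They included regions at Il17a, Ctla4 (2), Tigit and Ahr. Ahr, the aryl hydrocarbon receptor, was 38.8 kb from its region (6.35 and 14.9), which had a KO 2 peak 134 bp away. The MAF, CNC and AP-1 factor list held 4 of 149 (2.68%; 1 KO-only), among them Maf, Bach1 (2.91 and 18.95) and Nfe2l1 (2.70 and 8.55). Those at Bach1 and Nfe2l1 were low in WT 1.

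Shares in 2 lists of T cell genes were near the 1.69% over all distal regions. The immature thymocyte and TCF1 list held 7 of 407 (1.72%; 6 KO-only) and the T cell receptor signalling list 7 of 316 (2.22%; 3 KO-only). Rasgrp1, which couples the receptor to Ras, had 2 members, 79.5 and 21.4 kb away, with 18.1 and 48.8 and with 12.4 and 48.5. Nr4a3, an orphan receptor induced by T cell receptor signals, held one with 12.2 and 23.5. Nfatc2 (4.63 and 16.8) and the adaptor gene Lcp2 (3.55 and 8.25) held lower ones. Among the immature genes, Ets1 was 15.5 kb from a region with 6.69 and 23.9. Ikzf2 had 2, the higher with 5.44 and 16.2 and the lower with 2.15 and 8.43, and Id2 had 1 with 2.46 and 2.87. Id3, Bcl11b and Runx1 had 1 each, with WT 1 heights of 2.94 to 4.43. Of these genes, Runx1 alone had the taller peak in WT 1 (4.43 against 3.21).

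The type 1 list, genes of the γδ cells that make interferon-γ, held 2 of 115 (1.74%; 2 KO-only). They were at Stat4 (9.61 and 9.64, a KO peak 65 bp away) and Fasl (10.5 and 4.28, a KO peak 207 bp away). The MAPK list held 3 of 168 (1.79%; 2 KO-only), at Mapk14, Map2k4 (5.44 and 13.7) and Map3k1 (3.65 and 4.44), so the tallest member of all was the only high one of its cascade. Marker genes of other cells also had members. Ebf1, the B lineage factor, was 1 of 42 regions (2.38%; 0 KO-only) of the B, myeloid and erythroid list, with 9.28 and 23.5. Pecam1, an endothelial marker also made by blood cells, had both members of the stromal list (2 of 53, 3.77%, with 2 KO-only), with 18.99 and 29.2 and with 6.84 and 26.8. Their part in the result was not tested.

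Members were scattered over genes. With 897 of the 960 assigned, 818 genes had at least 1, of which 749 had 1, 60 had 2 and 9 had 3 or more. Of the 818, 74 also had a KO-only region. The genes with the most were Speer4c (4), and Il17a, Slc9a9, Arhgef3, Inpp5d, Rbms3, Speer4d, Exoc4 and Itga9 with 3 each, followed by Umad1 with 2. For Il17a that was 3 of 6 distal regions and for Inpp5d, the gene of the lipid phosphatase SHIP1 that limits immune receptor signalling, 3 of 10. For Slc9a9, Arhgef3, Exoc4 and Itga9 the 3 were among 32 to 39, and Itga9 also had 2 KO-only regions. The 3 members in Inpp5d lay within 19.98 kb, with heights of 10.1, 7.99 and 3.46 in WT 1 and 31.5, 9.79 and 10.1 in WT 2. Joining members no more than 20 kb apart gave 32 clusters with 67 members, none of more than 3.

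The Speer4 regions lay in a stretch of near-identical gene copies on chromosome 5, from 14918823 to 15712065, which was chosen after the values were seen. Reads from such copies cannot be placed with certainty, and how they were treated is not given in the sources used here, so these 16 members are uncertain. The stretch held 16 WT-only, 0 KO-only and 4 distal regions called in all 4 libraries. Heights were 2.08 to 10.3 in WT 1 and 1.85 to 6.37 in WT 2, and 12 of 16 were higher in WT 1, the reverse of the members in general. The lists held 153, 116, 70 and 31 peaks there (WT 1, WT 2, KO 1, KO 2), so both WT lists exceeded both KO lists. Without the stretch there were 944 members.

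Most WT-only distal regions lay inside genes, as distal regions in general did. Inside a protein-coding gene were 567 of 960 (59.1%, exact Clopper-Pearson 95% interval 55.9 to 62.2), against 61.1% of KO-only regions and 56.9% of regions called in all 4. The interval covers counting error only. The median distance to a gene end was 22.2 kb, against 25.8 kb in KO-only regions and 19.1 kb in regions called in all 4. More than 50 kb from every gene end were 250 (26.0%), and 63 (6.56%) had no protein-coding gene within 100 kb. Within 1 kb of an end of a non-coding gene or pseudogene were 50 (5.21%), against 8.40% of regions called in all 4.

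Chromosomes differed in their share. Per 1000 distal regions called in all 4 libraries there were a median of 21.0 WT-only regions, from 13.5 on chromosome 19 to 28.4 on chromosome 1. Chromosome 9 followed chromosome 1 with 27.4. Chromosome 8, which carries Maf, had 14.1, with 30 WT-only and 44 KO-only regions. KO-only regions ran from 12.9 to 21.6 per 1000. The X chromosome had 15 members.

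**Figure D4:**
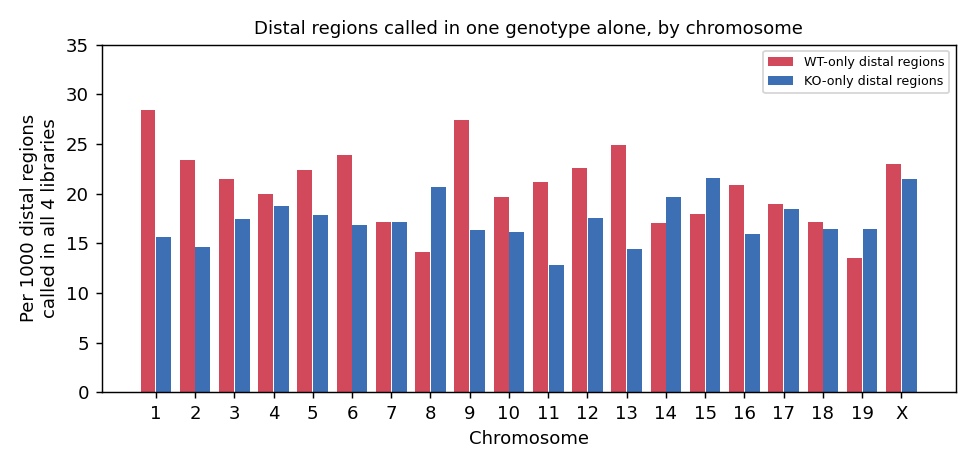
Bars give WT-only (red) and KO-only (blue) distal regions per 1000 distal regions called in all 4 libraries (y axis) on each chromosome (x axis). Red bars range from 13.5 on chromosome 19 to 28.4 on chromosome 1, and chromosome 8 is among those where the blue bar is the taller (20.7 against 14.1).

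Regions called in all 4 libraries that lay near a member were higher in the WT lists. Within 100 kb of a member stood 7179 such distal regions. Their mean percentile exceeded that of the 38129 elsewhere by 1.21 in WT 1 and 0.739 in WT 2, and was lower by 0.200 in KO 1 and 0.216 in KO 2. WT minus KO was 1.18 percentile points. Within 20 kb (1787 regions) the differences were 2.37, 1.31, 0.119 and 0.0130, and within 200 kb (11986 regions) 0.683, 0.526, −0.419 and −0.273. Both WT libraries were thus above both KO libraries at every distance, by a small amount that shrank with distance. Since the same contrast chose the members, no test was made.

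**Figure D5:**
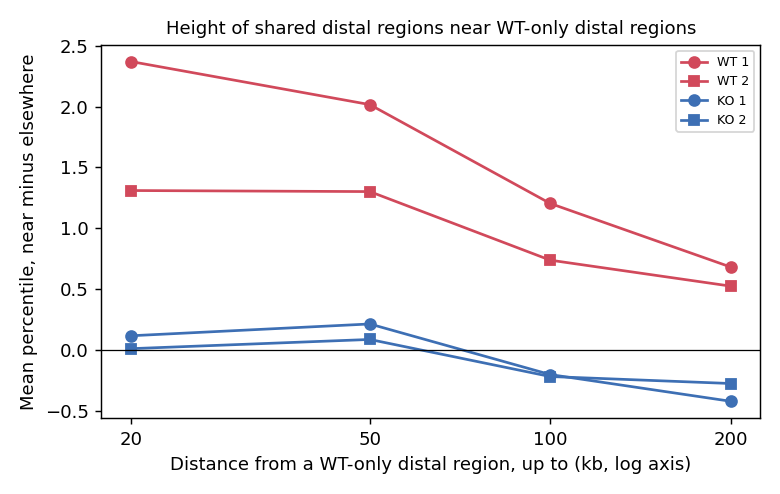
Mean within-library percentile of distal regions called in all 4 libraries near a WT-only distal region minus that of such regions elsewhere (y axis, percentile points) against the distance limit (x axis, kb, log axis), 1 line for each library. Both WT lines (red) lie above both KO lines (blue) at each of the 4 limits, with WT 1 falling from 2.37 at 20 kb to 0.683 at 200 kb.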

How the data were processed

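Omni-ATAC-seq peak lists of 2 WT and 2 KO libraries were analysed, with groups and replicate numbers taken from the sample titles. MACS2 2.1.1, Bowtie2 2.3.4.1, deepTools 3.1.2, bedtools, Picard, cutadapt and Trim Galore are named without roles, as are mm10 and GRCm38, per the submitters' processing notes. The Tn5 shift, duplicate handling and peak settings were not given in the sources used here. Lists were deposited in the narrowPeak layout, 1 per library, so peaks were called per library and not on pooled reads. The authors' whole-number score and the summit position came with each peak, and the score was not used. The deposited fold enrichment is the ratio of a summit to the background of its own library. Both deposited −log10 values, of p and of q, also refer to a single library and were used to describe, rank and filter peaks within a list.

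The members and the 9 gene lists were chosen with earlier results of these data known. Positions are 1-based. Merging, calling, gene distances (21631 protein-coding RefSeq genes, GRCm38.p6, without strand or exons) and percentiles used Python 3.11.15, pandas 2.3.3, numpy 2.4.6, scipy 1.17.1 and matplotlib 3.10.9, and were tested on simulated data. Pileup and background were solved per peak below a −log10 p of 250, from fold = (pileup + 1) / (background + 1) and the Poisson p-value of the caller. In every library 99.997% or more of solved pileups were whole to within 0.05. Depth as read totals was not analysed here, and 2 libraries per genotype limit the precision of every value.

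Named members were the 25 highest ranked, all at type 17 genes, up to 5 per other list by rank, those of the 10 genes with most members, and the 5 on each side of the limits. Alternatives varied the overlap, threshold, number of peaks, width, distance, gene set, chromosomes and libraries. Some named members are not reported here. No test between genotypes was made.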

Additional observations from a re-analysis of the deposited data

Results flagged for a closer look

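Peaks on the Y chromosome were outside every comparison. The lists held 82 (WT 1), 93 (WT 2), 134 (KO 1) and 95 (KO 2) of them, so both KO lists exceeded both WT lists. Per 1000 peaks of the list this was 0.795, 0.702, 1.02 and 0.789, where KO 2 fell below WT 1. Its cause was not tested. No WT-only distal region lies on Y.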

How the results depend on the processing

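The share inside genes (59.1%) ran from 56.5% to 60.1% over the alternatives tried. The 960 became 470 with a height of at least 5 in both WT libraries, 3185 with no minimum width and 216 at 300 bp or more. Leaving out 1 library gave 309 to 1919, with 1564 without WT 1, 309 without WT 2, 1598 without KO 1 and 1919 without KO 2. Other settings gave 816 to 1412. The 11 type 17 members became 7, 21 and 5 under the first 3 settings, and 4 (without WT 2) to 19 (without KO 2). The median lower percentile of 28.1 became 45.8 with a height of at least 5 in all libraries and 47.1 with it in both WT libraries, 40.8 when peaks had to cover at least 0.5 of the region and 17.0 with no minimum width, and ran from 26.4 to 46.0 with 1 library left out. The cause of these shifts was not tested. Of 56 named regions, 42 kept their place with a height of at least 5, 52 when a KO peak within 200 bp counted as a call, 22 at 300 bp or more and 30 without WT 2. Of the top 25, 24 were kept without WT 2 and 15 at 300 bp or more. For neighbouring shared regions, WT minus KO was 1.77 within 20 kb against 1.18, and 0.947 to 1.41 with 1 library left out. With the replicate number as a replicate block it was 1.40 for number 1 and 0.955 for number 2, and the numbers share no stated pool. The planned motif search in whole regions was not run, as no genome was used here. Depth limits calls at low heights, as given for KO above.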
